A study of Mus musculus with 24 samples.

Results

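The genes described here are 49 mouse genes of ribosome biogenesis and rRNA modification, out of 35975 genes in the RNA-seq table of periosteal cells with an inducible active YAP. They were listed by symbol because the score of an rRNA modification gene set was higher in those cells after doxycycline, so the contrast that chose them is the one in which most of their RNA values were measured. Their RNA values in that contrast are therefore a description. Where a gene is said to be called, the call comes from a fit over all genes of the table and is not independent evidence about the 49. All 49 symbols were found in the table.

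The cells are primary cells cultured from mouse periosteum, the layer that covers bone. The study concerns YAP, a co-activator of transcription that the Hippo kinases hold back, in the expansion of the periosteum early after a fracture. Cells called YAPCA carry 3 alleles, and WT cells are C57BL6. YAPCA Dox and WT Dox cells received 1 µM doxycycline (Dox) in medium with serum. YAPCA untreated and WT untreated cells received no vehicle, since the drug was dissolved in water. YAPCA untreated cells hold every allele of the YAPCA Dox cells. The Cre transgene B6.C-tg(CMV-Cre)1Cgn/J is under the CMV promoter, which is active in most cell types. The tetO-YAPS127A transgene codes for active YAP under the tetO element. The allele Gt(ROSA)26Sortm1(rtTA,EGFP)Nagy/J holds EGFP and rtTA, the activator that Dox switches on. RNA was sequenced, and open chromatin was read by ATAC-seq, in 8 groups of 3 samples (24 samples). The 3 samples of a group are labelled as technical replicates, and the sources used here give no age of the mice and no number of animals or cultures, so a spread between samples here may be technical only.

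Ribosome biogenesis starts in the nucleolus, where RNA polymerase I transcribes a long precursor that holds the rRNAs of both subunits. While the precursor is made, the small-subunit processome assembles on it, built around the U3 small nucleolar RNA and the UTP-A, UTP-B and MPP10 protein complexes, and small nucleolar ribonucleoproteins of the box C/D and box H/ACA families add methyl groups and pseudouridines. Helicases, a GTPase and base-modifying enzymes then drive maturation, and growing cells raise or lower the whole programme with their demand for protein synthesis.

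The 6 YAPCA RNA libraries held between 16351891 and 28734643 reads counted over genes, and the 49 genes had between 355 and 30037 reads each in a library. Ctgf, a YAP target, had normalised read counts of 69993, 68745 and 62697 in YAPCA Dox cells, against 41523, 41901 and 33646 in YAPCA untreated cells. Yap1 itself stood at 4732 to 4896 in YAPCA Dox cells and 4945 to 5134 in YAPCA untreated cells. The sources used here do not say whether transgene reads count as Yap1. Of 6 periosteal cell markers, all tested, 0 were called higher and 5 lower, where 14.3% of all tested genes were called higher and 13.5% lower. Thy1 was the marker not called, with means of 6356 in YAPCA Dox cells and 6333 in YAPCA untreated cells. The summed normalised read counts of the 6 were 437038 to 448604 in YAPCA Dox cells and 550063 to 572011 in YAPCA untreated cells. Most of these sums came from the collagen genes Col1a1 and Col1a2, with means of 222276 and 190546 in YAPCA Dox cells. Their means in YAPCA untreated cells were 307111 and 220693. Macrophage markers summed to 328 to 332 in YAPCA Dox cells and 280 to 349 in YAPCA untreated cells, with 0 of the 3 tested called, and endothelial markers to 80.8 to 118 in YAPCA Dox cells and 60.5 to 85.2 in YAPCA untreated cells, with 0 of 3 called. Of the muscle markers 2 were tested and 1 was called lower, and epithelial markers summed to at most 7.04 in any library. The part of these markers in the values below was not tested. In such bulk samples, fewer cells of a type and less RNA per cell cannot be told apart.

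In YAPCA cells given Dox, RNA of 37 of the 49 genes was called higher, by small steps, and that of 12 was not called. Their log2 changes (YAPCA Dox minus YAPCA untreated, on log2 of the normalised read count plus 1) ran between -0.01 for Nop10 and 0.44 for Nop58, with a median of 0.16, against a median of 0.0007 over the 13477 genes tested. Put on the linear scale, these log2 changes ran between 0.39% lower and 35.3% higher in YAPCA Dox cells, with a median of 11.9% higher. The log2 change was above 0 for 48 of 49 genes, against 50.2% of all tested genes. It was at least 0.3 for 8 genes, between 0.1 and 0.3 for 35 and below 0.1 for 6.

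All 49 genes passed the filter for testing, a mean normalised read count of at least 10. The calls are those of limma at a Benjamini-Hochberg adjusted p below 0.05 over all tested genes, with 37 of the 49 higher and 0 lower, where 14.3% of all tested genes were called higher and 13.5% lower. The lowest Dox library lay above the highest untreated library for 41 of the 49, where 21.0% of all tested genes showed the same. The reverse order was found for 0 of the 49, where 20.0% of all tested genes showed it. Since the genes were chosen from this contrast, none of these counts is evidence about them. At an adjusted p below 0.01, 23 of the 49 were called higher, where 9.14% of all tested genes were. The authors' deposited table calls 27 of the 49 higher at its own adjusted p below 0.05, where it calls 10.5% of the same tested genes higher. Fbl, Gar1, Nol11, Utp6, Wdr46, Emg1, Nat10, Ddx10, Polr1a and Polr1b were called by limma and not in that table. All of these except Nat10 also lost their call with DESeq2. The coefficient of variation between libraries had a median of 3.00% in YAPCA Dox cells and 3.16% in YAPCA untreated cells over the 49 genes. The SE of a log2 change lay between 0.024 and 0.064.

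**Figure D1:**
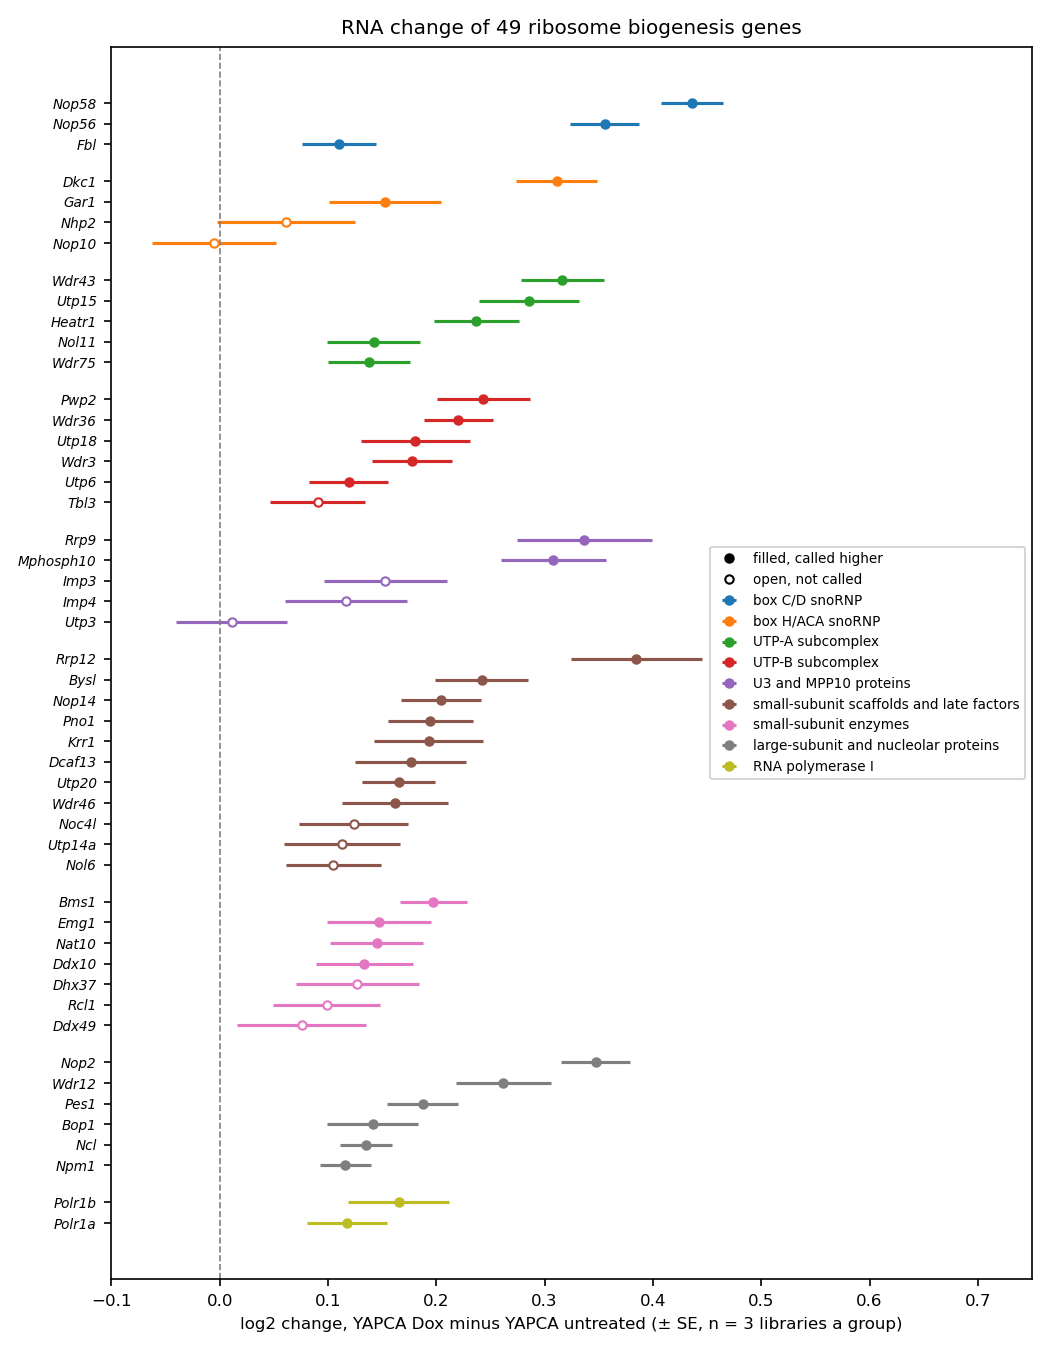
Log2 change in RNA (YAPCA Dox minus YAPCA untreated, limma, ± SE, 3 libraries a group) of each of the 49 genes, grouped and coloured by role; filled points were called higher, open points were not called, and the dashed line is the median of all 13477 tested genes. All but Nop10 lie above 0, and Nop58, Rrp12 and Nop56 have the largest changes.

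The box C/D proteins, which carry the methylation of rRNA ribose, held the largest change. Nop58, a scaffold protein of the particle, had normalised read counts of 4969.5, 4951 and 4923 in YAPCA Dox cells, against 3756, 3629.7 and 3586 in YAPCA untreated cells. Every Dox library was above every untreated one, and the log2 change was 0.44 ± 0.028. Nop56, the paired scaffold protein, had 3612, 3818 and 3587 in YAPCA Dox cells and 2843, 2911 and 2852 in YAPCA untreated cells, a log2 change of 0.36 ± 0.032 with no overlap. Fbl encodes fibrillarin, the methyltransferase of the same particle, and moved less, with 2158, 2119 and 2206 in YAPCA Dox cells and 2055, 2005 and 1946 in YAPCA untreated cells. The gap between the groups was narrow but without overlap, at a log2 change of 0.11 ± 0.034. All 3 box C/D genes were called higher by limma, and Fbl was not called in the authors' deposited table.

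The box H/ACA proteins, part of the particles that form pseudouridine in rRNA and of telomerase, split into 2 called higher and 2 not called. Dkc1 encodes dyskerin, the pseudouridine synthase, and had normalised read counts of 1829, 1799 and 1922 in YAPCA Dox cells, against 1522, 1491 and 1458 in YAPCA untreated cells. The groups did not overlap, and the log2 change was 0.31 ± 0.037. Gar1, a partner that binds dyskerin, was called higher at 0.15 ± 0.052. Nop10, the smallest partner protein, had 591, 542 and 545 in YAPCA Dox cells and 541, 582 and 560.1 in YAPCA untreated cells, and its libraries were interleaved at a log2 change of -0.01 ± 0.057. Nhp2, the remaining core protein, also overlapped, at a log2 change of 0.06 ± 0.064. The median over the 4 genes was 0.11.

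The UTP-A subcomplex binds the start of the rRNA precursor and is tied to its transcription. All 5 of its genes on the list, Heatr1, Utp15, Wdr43, Wdr75 and Nol11, were called higher without overlap, with a median log2 change of 0.24. Wdr43 had normalised read counts of 2906, 2897 and 2803 in YAPCA Dox cells, against 2351, 2400.3 and 2166 in YAPCA untreated cells, the largest change of the group at 0.32 ± 0.038. Wdr75 had the smallest, with 2189.9, 2035 and 2158 in YAPCA Dox cells and 1905, 2003 and 1891 in YAPCA untreated cells. A Dox library of Wdr75 lay only just above the highest untreated one, and the log2 change was 0.14 ± 0.038.

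The UTP-B subcomplex joins the precursor after UTP-A. Of its 6 genes, Pwp2, Wdr3, Wdr36, Utp6 and Utp18 were called higher without overlap and Tbl3 was not called, with a median log2 change of 0.18. Pwp2, a repeat protein of the complex, had 1087, 1073 and 1123 in YAPCA Dox cells, against 913, 954 and 906 in YAPCA untreated cells. Its groups were well apart, at a log2 change of 0.24 ± 0.043. Tbl3, another repeat protein, had 1163, 1208 and 1138 in YAPCA Dox cells and 1064, 1152 and 1081 in YAPCA untreated cells, where the lowest Dox library lay below the highest untreated one, and its log2 change was 0.09 ± 0.044.

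Among the proteins of the U3 particle and the MPP10 complex, 2 of 5 genes were called higher, with a median log2 change of 0.15. Rrp9, a protein specific to the U3 particle, had normalised read counts of 1072, 1078 and 1003 in YAPCA Dox cells, against 858, 905 and 740.2 in YAPCA untreated cells. The untreated libraries of Rrp9 were widely spread, yet all lay below the Dox libraries, at a log2 change of 0.34 ± 0.062. Mphosph10, which names the MPP10 complex, was called higher at 0.31 ± 0.048. Its partners Imp3 and Imp4 were not called, at 0.15 ± 0.057 without overlap and 0.12 ± 0.057 with overlap. Utp3, a further protein of the processome, had 1201, 1170.5 and 1130.0 in YAPCA Dox cells and 1096, 1121 and 1264 in YAPCA untreated cells, and the highest of all 6 values was an untreated library, at a log2 change of 0.01 ± 0.051.

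The largest role group, 11 scaffold and late-acting proteins of the small subunit, had no overlap between the groups for any gene and a median log2 change of 0.18, and 8 were called higher. Rrp12, an export and maturation factor known from yeast, had 1176, 1082 and 1061 in YAPCA Dox cells, against 907, 877 and 763 in YAPCA untreated cells. Its log2 change was 0.38 ± 0.060, with a Dox library well above the others and an untreated library well below. Nop14, a scaffold protein that pairs with Noc4l, had 1479, 1463 and 1469.6 in YAPCA Dox cells and 1307, 1252 and 1269 in YAPCA untreated cells. These Dox libraries were nearly equal, and the log2 change was 0.20 ± 0.037. Nol6, a structural protein of the processome, had 1637, 1666 and 1617 in YAPCA Dox cells and 1554, 1607 and 1419.9 in YAPCA untreated cells, a log2 change of 0.10 ± 0.044 that was not called although the groups did not touch. Noc4l and Utp14a were likewise not called, at 0.12 ± 0.051 and 0.11 ± 0.053. Wdr46, Utp20, Bysl, Dcaf13, Krr1 and Pno1 were called higher, between 0.16 for Wdr46 and 0.24 for Bysl.

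Of the 7 enzymes and enzyme partners of the small subunit, 4 were called higher, with a median log2 change of 0.13. Bms1, the GTPase of the processome, had 2581, 2639 and 2616 in YAPCA Dox cells, against 2323, 2258 and 2254 in YAPCA untreated cells. The groups were tight and apart, at 0.20 ± 0.031 on the log2 scale. Nat10, the enzyme that acetylates cytidines of the small-subunit rRNA, had 1302, 1330.1 and 1244 in YAPCA Dox cells and 1120.5, 1177 and 1207 in YAPCA untreated cells, without overlap and with a log2 change of 0.14 ± 0.043. Emg1, a methyltransferase that acts on a pseudouridine, and the helicase Ddx10 were called higher at 0.15 ± 0.048 and 0.13 ± 0.045. The helicase Ddx49 had 566, 561 and 573 in YAPCA Dox cells and 542, 574 and 499.6 in YAPCA untreated cells, with an untreated library above all Dox libraries, at a log2 change of 0.08 ± 0.060. The helicase Dhx37 and the Bms1 partner Rcl1 were not called either, at 0.13 ± 0.057 and 0.10 ± 0.050.

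All 6 genes of the large subunit and of abundant nucleolar proteins were called higher, with a median log2 change of 0.16. Nop2, a methyltransferase that acts on cytosine of the large-subunit rRNA, had normalised read counts of 2556, 2534 and 2473 in YAPCA Dox cells, against 1975, 1952 and 2017 in YAPCA untreated cells. The groups were far apart relative to their spread, at a log2 change of 0.35 ± 0.032. Npm1, nucleophosmin, had 25377, 24774 and 25093 in YAPCA Dox cells and 22969, 22888 and 23569 in YAPCA untreated cells, a log2 change of 0.12 ± 0.024 without overlap. Ncl, nucleolin, had 22590.1, 22536 and 22858 in YAPCA Dox cells and 20357, 20448 and 21122 in YAPCA untreated cells, again without overlap, at 0.13 ± 0.024. Their SEs were the smallest of the 49. The 3 proteins of the complex that processes the large-subunit precursor were Bop1 at 0.14 ± 0.042, Pes1 at 0.19 ± 0.033 and Wdr12 at 0.26 ± 0.044. Bop1 was the only called gene of the 49 whose groups overlapped.

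The largest subunits of RNA polymerase I, which transcribes the precursor, made small steps. Polr1a had 2341, 2243 and 2354 in YAPCA Dox cells, against 2088, 2231 and 2078 in YAPCA untreated cells, where the lowest Dox and highest untreated libraries nearly met, and its log2 change was 0.12 ± 0.037. Polr1b had 943, 912 and 870.3 in YAPCA Dox cells and 827, 810.0 and 792 in YAPCA untreated cells, without overlap, at 0.17 ± 0.047. Both were called higher by limma, and neither was called in the authors' deposited table or with DESeq2.

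**Figure D2:**
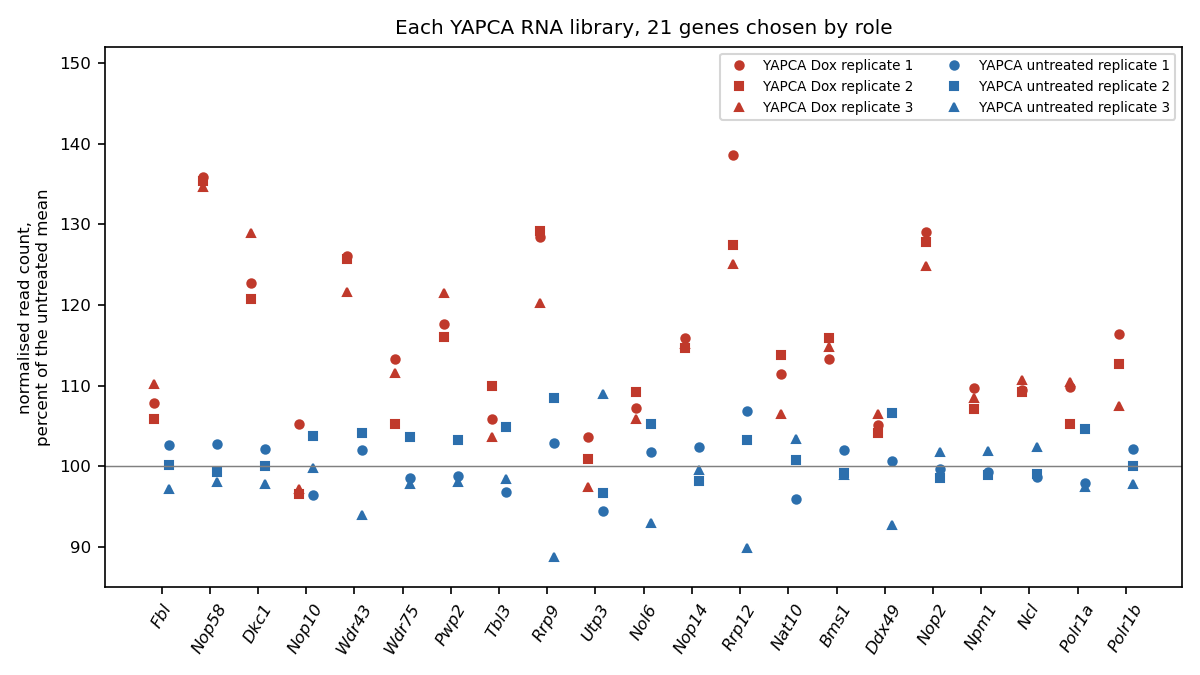
Normalised read count of each YAPCA RNA library, as a percent of the mean of the 3 YAPCA untreated libraries, for 21 genes chosen by a rule on role; red points are YAPCA Dox libraries and blue points YAPCA untreated libraries, with a shape for each replicate number. Nop58, Rrp12, Rrp9 and Nop2 show wide gaps between colours, and the colours mix for Nop10, Utp3, Ddx49 and Tbl3.

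A further 120 tested genes of the pathway that are not among the 49 were read from the same contrast in 5 lists. Of these 69 were called higher, 3 lower and 48 not called, with a median log2 change of 0.17. In the same fit 14.3% of all tested genes were called higher and 13.5% lower. The count of 69 became 60 with DESeq2, where 10.9% of all tested genes were called higher. It became 54 to 72 when a library was left out. The 49 large-subunit factors had 36 called higher and 0 lower, between 0.09 for Gnl3l and 0.36 for Ebna1bp2 among those called. The 25 further small-subunit genes had 13 called higher and 0 lower, with Nol10 the highest at 0.30 ± 0.039 and Ngdn the lowest of the called at 0.14 ± 0.050. The 19 further genes of rRNA modification and snoRNP assembly had 8 called higher and 0 lower, led by Dimt1, which dimethylates adenosines of the small-subunit rRNA. Dimt1 had 490.0, 539.8 and 512 in YAPCA Dox cells, against 364, 356 and 352 in YAPCA untreated cells, a log2 change of 0.52 ± 0.062 that exceeds that of any of the 49. Tcof1, the treacle protein of the nucleolus, was the lowest called gene of that list at 0.13 ± 0.034.

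Lower calls in the other lists numbered 3, all in the exosome and RNA polymerase I lists. The counts below stand beside 14.3% of all tested genes called higher and 13.5% called lower. The exosome, which trims rRNA ends, had 8 of 14 genes called higher, with Exosc6 at 0.34 ± 0.081, and Exosc4 called lower at -0.21 ± 0.067. The count of 8 became 4 to 7 when a library was left out, with 4 without YAPCA Dox replicate 2 and 5 without YAPCA Dox replicate 1 or YAPCA untreated replicate 3. Exosc4 lost its call with DESeq2 and without YAPCA Dox replicate 2 or 3 or YAPCA untreated replicate 1 or 2. The 13 further genes of RNA polymerase I and its factors had 4 called higher, 2 lower and 7 not called. The lower calls were 15.4% of this list, near the share of all tested genes, and the higher calls 30.8%. The lower calls numbered 1 with DESeq2, and also when any library other than YAPCA Dox replicate 3 was left out. Znrd1, a polymerase subunit, was the highest at 0.29 ± 0.067. Ubtf, which activates rDNA promoters, had 2911, 2925 and 2879.6 in YAPCA Dox cells, against 3101, 3270.5 and 3260.5 in YAPCA untreated cells, so every Dox library lay below every untreated one, at -0.14 ± 0.031. The other gene called lower was Polr1c, a subunit shared with RNA polymerase III, at -0.14 ± 0.046. Of the MYC family, transcription factors known to drive ribosome biogenesis, 2 of 4 tested genes were called higher and 0 lower. The higher count was 1 with DESeq2, with a minimum mean of 50 and without YAPCA Dox replicate 1, and the lower count was 1 without YAPCA untreated replicate 3. Myc had 2173, 2222 and 2212 in YAPCA Dox cells, against 1762, 1880.1 and 1721 in YAPCA untreated cells, without overlap and at 0.30 ± 0.037 on the log2 scale. Mycn was low throughout, with 21.1, 19 and 14.6 in YAPCA Dox cells and 5.6, 6.48 and 2.81 in YAPCA untreated cells, at 1.73 ± 0.37. These lists belong to the pathway by which the 49 were picked and share their libraries, so they are no independent support.

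**Figure D3:**
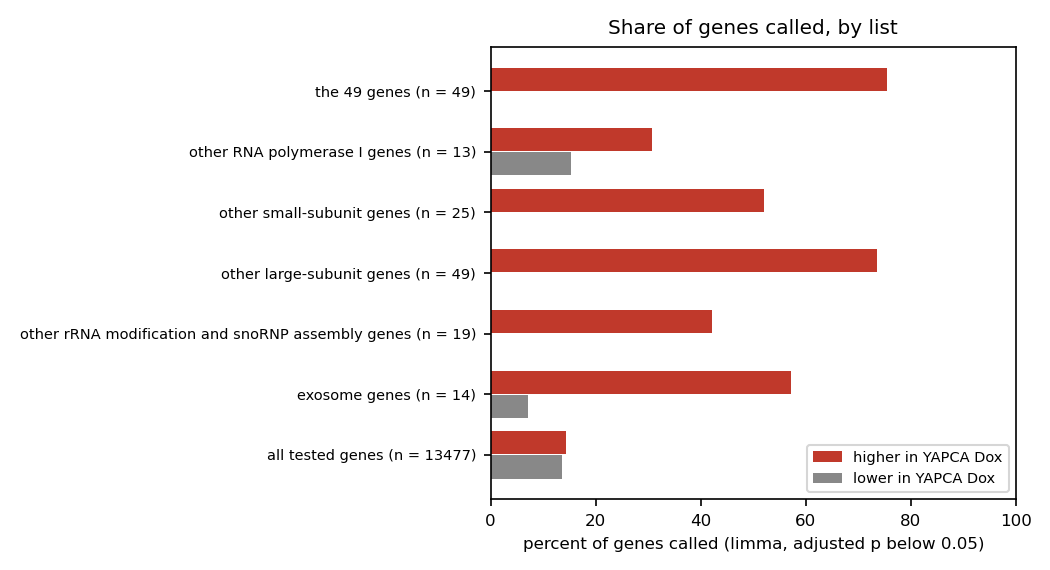
Percent of tested genes called higher (red) or lower (grey) in YAPCA Dox cells (limma, adjusted p below 0.05) for the 49 genes, the 5 lists of further pathway genes and all 13477 tested genes. The further large-subunit genes stand near the 49 genes, and only the RNA polymerase I and exosome lists hold genes called lower among the pathway lists.

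MYC proteins bind the E-box CACGTG, so the promoters of the 49 genes were searched for that motif on both strands, in the window from 250 bases before to 50 bases after the RefSeq start. RefSeq (GRCm38.p6, the assembly called mm10) held an entry for 40 of the 49. The motif was present in 9 of the 40, or 22.5%, against 11.6% of the 10105 tested genes with an entry, 18.1% of the 105 further pathway genes with an entry and 8.09% of all 27025 entries. These windows of 30 bases around each match show how near the start the motif lies, with CACGTG in capitals, read 5′ to 3′ on the strand of the gene.
Wdr43 (chr17:71616220-71616249, + strand): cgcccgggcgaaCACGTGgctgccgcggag
Nol11 (chr11:107189407-107189436, - strand): cttgagcgttcgCACGTGgtctagactcca
Utp18 (chr11:93885769-93885798, - strand): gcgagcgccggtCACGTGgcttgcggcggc
Imp4 (chr1:34439696-34439725, + strand): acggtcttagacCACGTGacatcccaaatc
Wdr46 (chr17:33940699-33940728, + strand): aagggagtttcgCACGTGgatcgttgttcg
Utp20 (chr10:88826765-88826794, - strand): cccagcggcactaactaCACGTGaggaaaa
Pno1 (chr11:17211540-17211569, - strand): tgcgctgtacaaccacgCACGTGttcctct
Nop2 (chr6:125131811-125131840, + strand): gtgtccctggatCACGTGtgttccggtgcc
Pes1 (chr11:3963965-3963994, + strand): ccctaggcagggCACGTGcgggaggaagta

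The motif began within 60 bases of the start in all of these except Imp4, where it began 121 bases before it. The 9 genes include Nop2 and Wdr43, described above with log2 changes of 0.35 and 0.32, and also Imp4, which was not called. Genes with the motif had a median log2 change of 0.18 (n = 9) and genes without it 0.15 (n = 31), a description only. The TEAD motif GGAATG, the letters bound by the DNA-binding partners of YAP, was found in 10.0% of the 40 promoters, against 14.6% of the promoters of tested genes. The AP-1 motif TGANTCA was found in 0 of the 40 and in 6.46% of tested genes. The ETS motif CCGGAAG was found in 37.5%, against 19.6%, and the GC box GGGCGG in 62.5%, against 68.6%. The CCAAT box was found in 50%, against 43.0%, and the palindromic NRF1 motif in 5.0%, against 2.28%. The median GC content of the promoters was 55.8% for the 40 genes and 62.0% for tested genes, so base composition differed between the sets beside these shares. A match is not a binding site, and these letters being absent from a window says nothing of the factor.

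In open chromatin, 32 of the 49 genes had no site listed for the YAPCA contrast. The share of all tested genes without a site in either direction was not counted. The authors' deposited table lists 30496 sites at an FDR below 0.05, of which 26605 were gained and 3891 lost with Dox. A site given to its nearest gene, at most 100 kb away, was assigned to 17 of the 49 genes, with 27 sites in all, of which 23 were gained, 4 were lost and 15 lay over the gene. Gained sites were found at 16 of the 49, where 44.8% of 12802 tested genes with a known span had one, and lost sites at 1 of the 49, where 14.1% did. Within 10 kb, 12 of the 49 had a gained site, against 42.7% of tested genes, and at a log2 fold beyond 0.5 it was 11 of the 49, against 30.2%. Lost sites were found at 1 of the 49 at an FDR below 0.001, against 1.39%, and at 0 of the 49 beyond a log2 fold of 0.5, against 7.92%. The share of gained among listed sites was 85.2% at the 49 genes and 87.2% over all sites, and the median log2 fold of gained sites was 0.57 at the 49 genes and 0.56 over all. The 49 genes have a median span of 16030 bp, against 22793 bp for tested genes, and its part in these counts was not tested. The sites are deposited as group means without per-sample values, so no test over samples was possible.

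At the starts themselves, few sites were listed. Of the 40 genes with a RefSeq start, 2 had a gained site that overlaps the 1 kb on either side of it, where 12.0% of 10105 tested genes did, and 0 had a lost one, where 3.56% did. The site of Nop14 at chr5:34659996-34660683 covers the start and also overlaps the neighbouring gene Grk4. In the authors' deposited table it had log2 concentrations of 11.28 in YAPCA Dox cells and 11.10 in YAPCA untreated cells, a log2 fold of 0.18 at an FDR of 0.0129. It had the highest concentration and the smallest fold of the 23 gained sites at the 49 genes. The site of Pwp2 at chr10:78186134-78186374 lies 985 bp from its start and is nearer to another gene. In the authors' deposited table it had 7.08 in YAPCA Dox cells and 6.35 in YAPCA untreated cells, a log2 fold of 0.72 at an FDR of 0.000349. The 250 bases before the start of Nop14, all of them inside its gained site, are given with the GC box in capitals, read 5′ to 3′ on the strand of the gene.
Nop14 (chr5:34660149-34660398, - strand): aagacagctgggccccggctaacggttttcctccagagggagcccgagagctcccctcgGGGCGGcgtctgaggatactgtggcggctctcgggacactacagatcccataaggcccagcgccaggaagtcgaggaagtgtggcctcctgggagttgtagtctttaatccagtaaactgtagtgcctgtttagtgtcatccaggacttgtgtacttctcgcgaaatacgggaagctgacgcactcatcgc

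The largest folds lay away from starts. In the authors' deposited table a site within Wdr43 (chr17:71635449-71635805), 19234 bp from its start, had log2 concentrations of 6.10 in YAPCA Dox cells and 4.80 in YAPCA untreated cells, a log2 fold of 1.31 at an FDR of 1.23e-05. A site within Nop58 (chr1:59687549-59687807), 2543 bp from its start, had 8.73 in YAPCA Dox cells and 7.74 in YAPCA untreated cells in the authors' deposited table, a log2 fold of 0.99 at an FDR of 1.93e-15. Nop58 was also the gene with the largest RNA change of the 49. Ddx10 had the most sites, 5 with log2 folds of 0.34 to 1.2 in the authors' deposited table, of which 2 lie in the gene. Polr1a had 4, at 0.29 to 0.91 in the authors' deposited table. The remaining genes with a gained site, each with 1, were Utp15, Utp6, Utp20, Bysl, Dcaf13, Krr1, Rrp12, Bms1, Dhx37, Npm1 and Pes1. Nop56, Dkc1, Nop2, Rrp9 and Mphosph10, each with an RNA log2 change of at least 0.3, had no listed site.

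The only lost sites were 4 over Bop1, between positions 76455487 and 76464209 of chromosome 15. In the authors' deposited table their log2 folds ran between -0.40 and -0.18, and the site with the highest signal had log2 concentrations of 12.19 in YAPCA Dox cells and 12.38 in YAPCA untreated cells. Bop1 RNA was higher in the same contrast, at 0.14 ± 0.042. The gene Scx, a transcription factor of tendon cells, lies within Bop1 at chr15:76457411-76459468, and the 4 sites are 1553 to 4610 bp from it. Scx, which was looked at after these sites were seen, had normalised read counts of 634, 613 and 559.9 in YAPCA Dox cells, against 697, 742 and 701 in YAPCA untreated cells. All Dox libraries of Scx lay below the untreated ones, at a log2 change of -0.25 ± 0.057. Which of these genes the sites belong to was not tested.

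**Figure D4:**
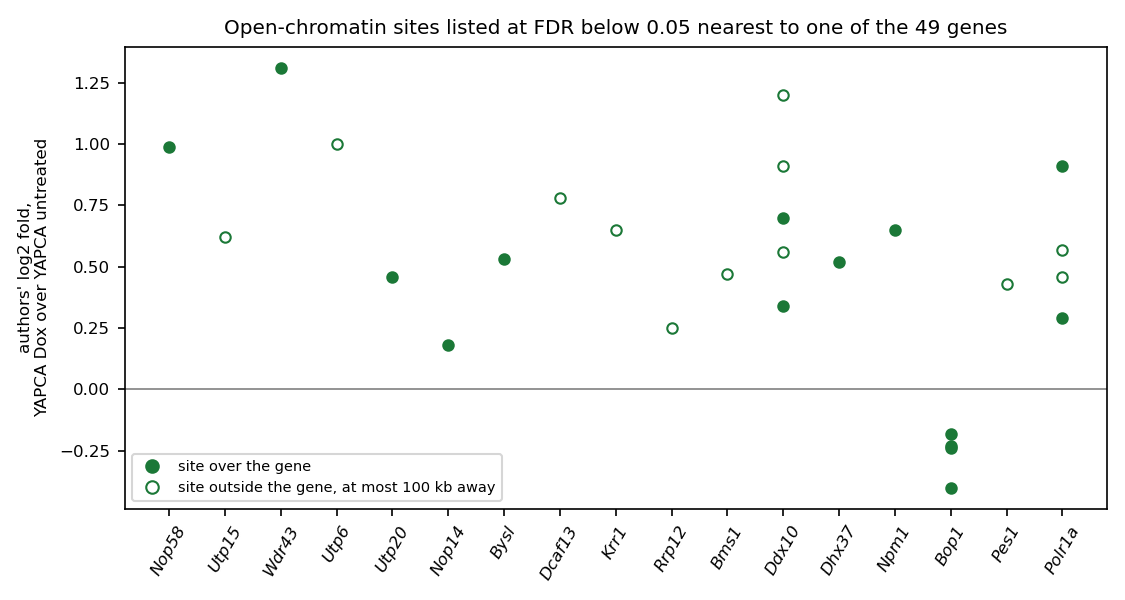
The authors' log2 fold (YAPCA Dox over YAPCA untreated) of the 27 open-chromatin sites listed at an FDR below 0.05 and nearest to one of the 49 genes; filled points lie over the gene and open points outside it. The 23 gained sites spread over 16 genes, and the 4 lost sites all lie over Bop1.

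In WT cells, where Dox has no tetO transgene to switch on, the deposited lists are short for all genes. The authors' deposited table of WT RNA lists 98 genes, 23 higher and 75 lower with Dox, and Utp20 was the only one of the 49 in it, where 0.727% of the genes tested in YAPCA cells were listed. The lowest mean among the 98 listed genes was 1970.0 normalised read counts. The 48 other genes and the 120 further pathway genes have no WT value used here. Utp20, a large scaffold protein of the processome, had 2791, 2990.2 and 2596 in WT Dox cells, against 3160.1, 3056 and 3287 in WT untreated cells. Every WT Dox library was below every WT untreated one, and the authors' deposited table gives a log2 change of -0.18 with an SE of 0.052 and an adjusted p of 0.0218. In YAPCA cells Utp20 went the other way, with 2439, 2295 and 2415 in YAPCA Dox cells, against 2124, 2134 and 2115 in YAPCA untreated cells, at 0.17 ± 0.034. The difference between the genotypes was not tested, since the tables were normalised separately.

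The authors' deposited table of WT open chromatin lists 42 sites, and 1 of them was assigned to the 49 genes. It overlaps both Noc4l and its neighbour Ddx51 at chr5:110652721-110653573 and covers the start of Noc4l. In the authors' deposited table it had log2 concentrations of 9.12 in WT Dox cells and 8.74 in WT untreated cells, a log2 fold of 0.38 at an FDR of 0.0326. No listed YAPCA site was nearest to Noc4l. The 250 bases before the start of Noc4l, 191 of which lie in that site, are given with the GC box in capitals, here as CCGCCC on the strand of the gene.
Noc4l (chr5:110653383-110653632, - strand): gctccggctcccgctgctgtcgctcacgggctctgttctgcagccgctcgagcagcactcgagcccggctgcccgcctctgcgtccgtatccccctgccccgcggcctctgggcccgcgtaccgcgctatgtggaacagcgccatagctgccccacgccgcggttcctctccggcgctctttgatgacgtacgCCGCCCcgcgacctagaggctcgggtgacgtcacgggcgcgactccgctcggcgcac

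The authors' deposited tables of gene set scores give a value per sample for 4320 sets in YAPCA cells and 4333 in WT cells. The 8 sets that name rRNA or the ribosome, and do not name mitochondria, were read. The headers of the score columns do not name the assay, and they were read as RNA scores from the sample names. The rRNA modification set had scores of 0.59, 0.51 and 0.25 in YAPCA Dox cells, against -0.54, -0.35 and -0.54 in YAPCA untreated cells in the authors' deposited table. This set led to the choice of the 49 genes, and its difference of 0.93 ranks 2 among all 4320 sets, so it is given as a description. In WT cells the same set had scores of -0.15, -0.19 and 0.14 in WT Dox cells and -0.31, -0.25 and 0.49 in WT untreated cells, interleaved, with a difference of -0.05 (two-sided exact permutation p = 1, n = 3 each).

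The WT scores of the other sets did not all go the same way. The rRNA processing set had 0.15, 0.02 and 0.51 in WT Dox cells, against -0.26, -0.37 and -0.07 in WT untreated cells, higher in 3 of 3 samples, with a difference of 0.46 (two-sided exact permutation p = 0.1, adjusted over the 8 sets 0.2). In YAPCA cells that set also had no overlap, with a difference of 0.55. The B-WICH set, named for a chromatin remodeller that acts on rDNA, had -0.42, -0.05 and -0.31 in WT Dox cells, against 0.10, -0.0011 and 0.36 in WT untreated cells, lower in 3 of 3 samples, with a difference of -0.41 (exact permutation p = 0.1, adjusted 0.2). In YAPCA cells its difference was 0.55. The KEGG ribosome set and the cytoplasmic ribosomal protein set, which hold ribosomal proteins, had WT differences of 0.83 and 0.79 without overlap (exact permutation p = 0.1, adjusted 0.2, for each). In YAPCA cells the same sets had differences of 0.02 and -0.01, with overlapping samples. Whether these sets share genes with the rRNA processing set was not looked at. The other 3 sets had WT differences between -0.22 and 0.09 and overlapping samples. With 3 samples against 3, no exact p can go below 0.1, so no set could pass by exact permutation. The authors' deposited table of WT scores also holds an FDR per set. It was 0 for the rRNA processing, KEGG ribosome and cytoplasmic ribosomal protein sets. For the B-WICH set it was 0.097, and for the rRNA modification set 0.885. The other 3 sets had 0.38 to 0.88. The differences between genotypes were not tested, because scores were made separately in each table.

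**Figure D5:**
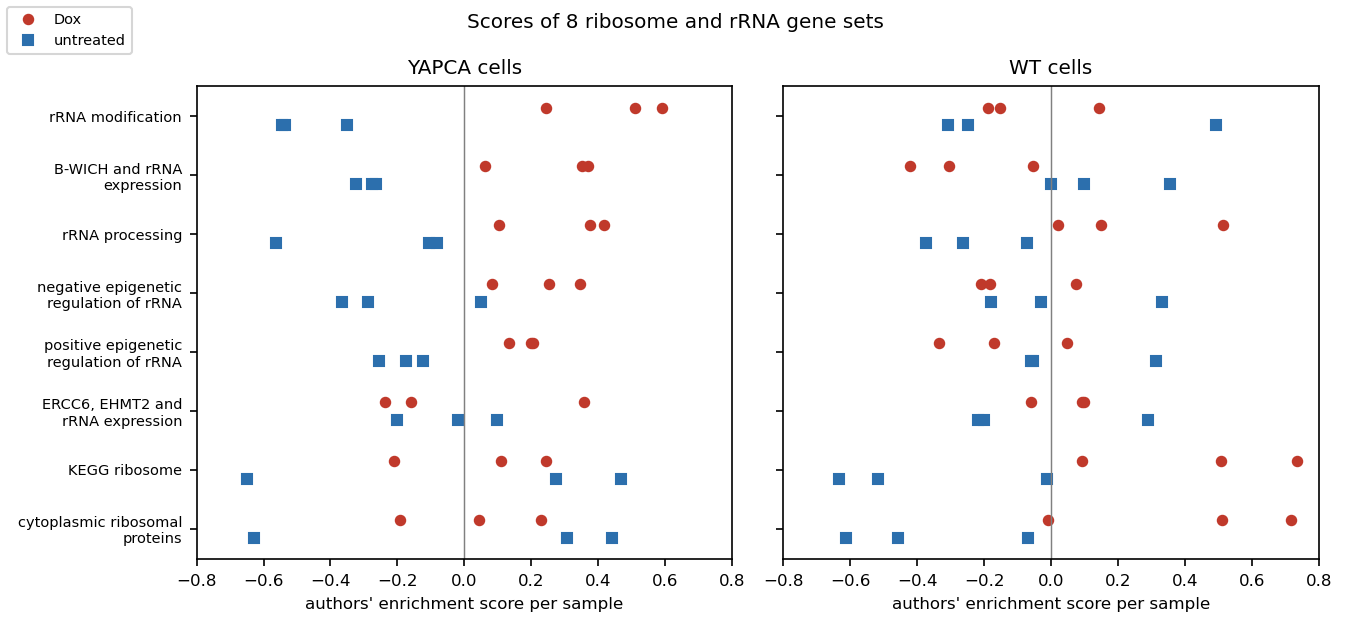
The authors' enrichment score per sample for 8 gene sets that name rRNA or the ribosome and not mitochondria, in YAPCA cells (left panel) and WT cells (right panel); red circles are Dox samples and blue squares are untreated samples. The rRNA modification scores of YAPCA Dox and YAPCA untreated samples do not overlap, those of WT Dox and WT untreated samples interleave, and the ribosomal protein sets separate only in WT cells.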

How the data were processed

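RNA-seq and ATAC-seq of cultured periosteal cells in 8 groups of 3 samples were grouped by the labels. The submitters' processing notes name the mm10 build, HISAT2, featureCounts, Picard and DESeq2, and also SAMtools, Bowtie2, bedtools, MACS2, HOMER and DiffBind. No version, role or pooling for peak calls is given there.

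The deposited RNA-seq signal is a normalised read count, which the authors made from read counts with 1 factor a sample. Dividing by that factor gave whole reads for all values within 0.01 of a read, and those reads carried the count tests. The authors' deposited log2 fold changes and p-values come from DESeq2 for RNA and from DiffBind for sites, per the file headers, and a linear fold stands beside them in the WT table. ATAC-seq values are log2 concentrations per group, per the file headers. The WT sites are deposited as other joined text fields, per the file headers. The set scores are deposited by the authors, and the tool is not stated there. Columns of per-sample values without a sample numbered 0. A sheet for chromosome 3 has its group headings exchanged at 1932 of 1932 sites, and the main sheet's order was used.

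YAPCA RNA was fitted with limma 3.58.1 (R 4.3.3, two-sided, with an intensity trend) after a pseudocount of 1 and log2, on the 13477 genes whose mean reached 10, and called at a Benjamini-Hochberg adjusted p below 0.05. A change on this scale understates that of low genes. Alternatives were edgeR 4.0.16 and DESeq2 1.42.0 on the recovered reads, a replicate block, pseudocounts of 5 and 0.5, TMM scaling, stricter or looser filters and cut-offs, and leaving out each library. The fit was tested on simulated data. WT set scores were compared by exact permutation. Sites were assigned to the nearest gene, at most 100 kb away, with RefSeq spans of GRCm38.p6 in Python 3.11.15. Pairs of replicates in a group differed beyond sampling noise (chi-square over its degrees of freedom, 1.80 to 3.36), and each was counted as a sample.

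The 49 genes, the role groups and the lists were chosen with earlier results of these data known. Genes with per-sample values are the largest rise and the lowest log2 change of each role group, Fbl, Dkc1, Nop2, Nat10, Npm1, Ncl, Polr1a, and those with a site within 1 kb of the start. Nop56, Utp20 and Scx are further examples chosen after their values were seen, as are the genes of other lists beyond the highest and lowest called. Sequences are from RefSeq promoter entries, which 9 of the 49 genes lack.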

Additional observations from a re-analysis of the deposited data

Results flagged for a closer look

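Utp20, a scaffold protein of the small-subunit processome, moved in opposite directions in the genotypes. Its log2 change was 0.17 in YAPCA cells, where every Dox library lay above every untreated one, and -0.18 in WT cells in the authors' deposited table, where every Dox library lay below every untreated one. The difference between the genotypes was not tested, since the tables were normalised separately.

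The score of the B-WICH set on rRNA expression was likewise opposite. The difference between Dox and untreated samples was 0.55 in YAPCA cells and -0.41 in WT cells in the authors' deposited table, with no overlap between the groups in either genotype. This difference between the genotypes was not tested.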

How the results depend on the processing

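The count of the 49 genes called higher was 37, and lay between 26 and 40 under the alternatives other than the stricter threshold, and 23 were called at an adjusted p below 0.01 (9.14% of all tested genes). DESeq2 called 28 (10.9% of all tested genes higher) and edgeR 38 (14.4%). Leaving out a library gave 26 to 36, with 26 without YAPCA Dox replicate 1, where the share of all tested genes called higher was 11% to 13.4%, and a median log2 change of 0.15 to 0.18. Of the 49 genes 46 had a log2 change above 0 in all 15 settings, and Nop10, Utp3 and Nhp2 went below 0 in 12, 3 and 1 of them. The replicate block called 40 of the 49 higher, adding Imp3, Nol6 and Dhx37, and 16.8% of all tested genes. The deviations of same-numbered samples correlated at 0.064, 0.11 and 0.20. Those of YAPCA Dox replicate 1 correlated at 0.10 with YAPCA untreated replicate 2. The reverse pair, YAPCA Dox replicate 2 and YAPCA untreated replicate 1, correlated at 0.065. Those of YAPCA Dox replicate 3 correlated at -0.094 and -0.15 with YAPCA untreated replicates 1 and 2. Those of YAPCA Dox replicates 1 and 2 each correlated at -0.14 with YAPCA untreated replicate 3. Whether the replicate numbers pair the samples was not tested. The further pathway genes called lower numbered 3, against 1 with DESeq2, 1 at an adjusted p below 0.01 and 1 to 2 when a library was left out.

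Genes with a gained site numbered 16, against 12 within 10 kb, 11 at a log2 fold beyond 0.5 (30.2% of tested genes with a known span), 8 at an FDR below 0.001 (25.9%) and 2 within 1 kb of the start. Genes with a lost site numbered 1, against 0 within 1 kb of the start and 0 beyond a log2 fold of 0.5. The WT difference of the rRNA modification score was -0.05 as a difference of means and 0.094 as a difference of medians, and ranged between -0.19 and 0.21 when a sample was left out. It was 0.21 without WT untreated replicate 3. The WT difference of the ERCC6 set was 0.29 as a difference of medians and ranged between -0.0022 (without WT untreated replicate 1) and 0.25 when a sample was left out. In the same way the negative epigenetic set ranged between -0.26 and -0.00028 and the positive one between -0.32 and -0.095, both nearest 0 without WT untreated replicate 3. The cause of the changes of sign, in the rRNA modification and ERCC6 sets only, was not tested. The depth of the WT and ATAC-seq libraries is unknown, and WT genes and sites outside the deposited lists have no value here.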
